A study of Mus musculus with 2 samples.

Results

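The immunity-related GTPases are a family of interferon-induced proteins, and 7 of its mouse genes, matched by symbol, are described here among the 32245 gene symbols counted in single cells of the adrenal gland. Irgm1, Irgm2 and Igtp (also called Irgm3) make up the regulatory group of 3. Iigp1 (Irga6), Ifi47 (Irgd), Tgtp1 and Tgtp2 (both Irgb6) make up the effector group of 4. The cells came from 2 libraries of female C57BL/6J mice of genotype SF1-Cre+;Znrf3Fx/Fx, 1 from glands at 9 weeks (3 adrenals) and 1 from glands at 6 weeks (2 adrenals). Both ages carry the same deletion, and no library of glands without it was used here. Cre recombinase under SF1 control acts in the steroid-producing cells of the cortex, so deletion of Znrf3, a ubiquitin ligase that restrains Wnt signalling, is directed to those cells and not to vessels or leukocytes. The design text names 6 weeks as the age of hyperplasia and 9 weeks as the age of regression, and asks how the immune surroundings differ after senescence has begun. Each library pooled glands, and the number of animals behind them is not stated.

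In mouse cells infected with vacuole-dwelling parasites or bacteria, effector immunity-related GTPases bind GTP, assemble on the membrane around the pathogen and help to break it open. The regulatory proteins sit on the cell's own membranes and keep the effectors there in an inactive, GDP-bound state. Transcription of these genes is induced strongly by interferon gamma, in part through IRF1, and also by type I interferons. Endothelial cells and macrophages are both well known to respond to interferon gamma in this way.

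All 7 genes are protein-coding in GENCODE M21 on mm10. Irgm1 (ENSMUSG00000046879, chromosome 11, 48861968 to 48871683, minus strand), Tgtp1 (ENSMUSG00000078922, 48985327 to 48994172, minus), Tgtp2 (ENSMUSG00000078921, 49057194 to 49064206, minus) and Ifi47 (ENSMUSG00000078920, 49076587 to 49096974, plus) lie within 235 kb. Igtp (ENSMUSG00000078853, 58199556 to 58207591, plus) and Irgm2 (ENSMUSG00000069874, 58199618 to 58222782, plus) lie 9103 kb further along the same chromosome and overlap on the same strand. Iigp1 (ENSMUSG00000054072, plus strand) is on chromosome 18, and no promoter is shown for it. Read counts of overlapping or near-identical genes can be split between them. Of the distinct 50-base windows in the last 500 bases of each gene's transcripts, 80.8% of those of Tgtp1 and 73.7% of those of Tgtp2 also occur in another gene, among them each other and Gm12185. The counts of Tgtp1 and Tgtp2 are therefore uncertain as single values, and their sum is given beside them. For Ifi47 that share was 4.54% (shared with Olfr56) and for Irgm1 1.99%, and for Irgm2, Igtp and Iigp1 it was 0. Irgm2 and Igtp share 162 bases of exon.

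Promoters of the 6 genes on chromosome 11 were read from RefSeq, build GRCm38.p6, as windows from 250 bases before to 50 bases after each start. Stretches of 80 bases from 5 of them are shown because they carry the letters through which interferon signalling is known to act. Capitals mark TTCNNNGAA, a palindrome found in promoters that answer to interferon gamma, and GAAANNGAAA, the core of the interferon-stimulated response element, both searched on either strand.

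Irgm2 (chr11:58214872-58214951, plus strand): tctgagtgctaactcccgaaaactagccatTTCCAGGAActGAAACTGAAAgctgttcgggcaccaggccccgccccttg
Igtp (chr11:58199481-58199560, plus strand): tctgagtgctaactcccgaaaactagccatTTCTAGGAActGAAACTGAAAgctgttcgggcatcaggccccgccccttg
Tgtp1 (chr11:48992285-48992364, minus strand): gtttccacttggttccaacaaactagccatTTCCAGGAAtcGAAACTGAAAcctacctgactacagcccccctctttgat
Tgtp2 (chr11:49064244-49064323, minus strand): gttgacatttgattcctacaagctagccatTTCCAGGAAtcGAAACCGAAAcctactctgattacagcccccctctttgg
Irgm1 (chr11:48871401-48871480, minus strand): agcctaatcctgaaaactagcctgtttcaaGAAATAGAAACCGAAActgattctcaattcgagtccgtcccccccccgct

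Irgm2, Igtp, Tgtp1 and Tgtp2 held both motifs in the same order on the gene's strand, 2 bases apart. That joint motif, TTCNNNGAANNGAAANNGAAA on either strand, was found in 5 of all 32851 promoters of the table (0.0152%). The 5 were those 4 genes and Gm12185, a family member that overlaps Tgtp1. The joint motif was written with the order and spacing of those 4 stretches, so its presence in them was fixed beforehand. Irgm1 held GAAANNGAAA at 2 overlapping places and no TTCNNNGAA, and the Ifi47 window held neither motif. Taken singly, TTCNNNGAA was in 8.30% of all promoters, GAAANNGAAA in 3.44%, and both anywhere in the window in 0.454%. These matches describe letters in a window and were not tested for function.

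After removal of poor cells and called doublets, 9941 cells with 88777418 UMIs (unique molecular identifiers, each marking 1 captured RNA molecule) remained at 9 weeks, against 8133 cells with 86491599 UMIs at 6 weeks. The median was 7029 UMIs per cell at 9 weeks and 11348 at 6 weeks, and 29 barcodes occurred in both libraries (0.268% of 9-week and 0.327% of 6-week barcodes). Levels are given as CPM, the usual depth-scaled count, with all UMIs of a class in a library as its base. Cell classes were rebuilt by clustering and are named "-like" from marker genes, so a class may differ from the study's own. A class was used where both libraries held 50 or more of its cells, which left 7. Endothelial-like cells numbered 1595 at 9 weeks and 1532 at 6 weeks, with median depths of 2620 and 2103.5 UMIs. Macrophage-like cells numbered 2272 and 963 (7128.5 and 5909 UMIs), T/NK-like cells 1093 and 395 (3961 and 3542 UMIs), B cell-like cells 333 and 136 (2861 and 2357.5 UMIs), and adrenocortical-like cells 2039 and 4195 (14857 and 15595 UMIs), the 9-week value first in each pair. The 11 endothelial markers summed to 17508 CPM in endothelial-like cells at 9 weeks and to 17499 CPM at 6 weeks, against 19.0 to 166 CPM in the other 4 of these classes. With 1 library per age no test between ages was possible. Every interval below is an exact Poisson or Clopper-Pearson 95% interval that covers counting error only, without the variation between animals. Intervals of levels, ratios and shares of UMIs also leave out the spread between cells and are too narrow for it. At full depth the variance of the family's UMIs per cell was 5.02 and 5.81 times the mean in endothelial-like cells (9 and 6 weeks). In adrenocortical-like cells it was 15.6 and 21.5 times. Intervals that do not overlap are therefore no test.

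Endothelial-like cells carried the highest summed level of the 7 genes at both ages. The sum was 1416 CPM (1381 to 1452) at 9 weeks, against 819 CPM (789 to 849) at 6 weeks. At 9 weeks macrophage-like cells followed with 572 CPM and T/NK-like cells with 493 CPM, and B cell-like (174 CPM), adrenocortical-like (154 CPM), neutrophil-like (124 CPM) and dendritic-like cells (118 CPM) lay far below. At 6 weeks T/NK-like cells came second with 534 CPM and macrophage-like cells next with 417 CPM, and adrenocortical-like cells were lowest with 94.6 CPM. Intervals of neighbours in this order did not overlap among the top 3 classes at either age, whereas those of B cell-like and adrenocortical-like cells at 9 weeks, of neutrophil-like and dendritic-like cells at 9 weeks, and of each pair of neighbours below macrophage-like cells at 6 weeks other than macrophage-like and dendritic-like, did. The endothelial sum was 2.48 times that of the next class at 9 weeks and 1.53 times at 6 weeks.

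**Figure D1:**
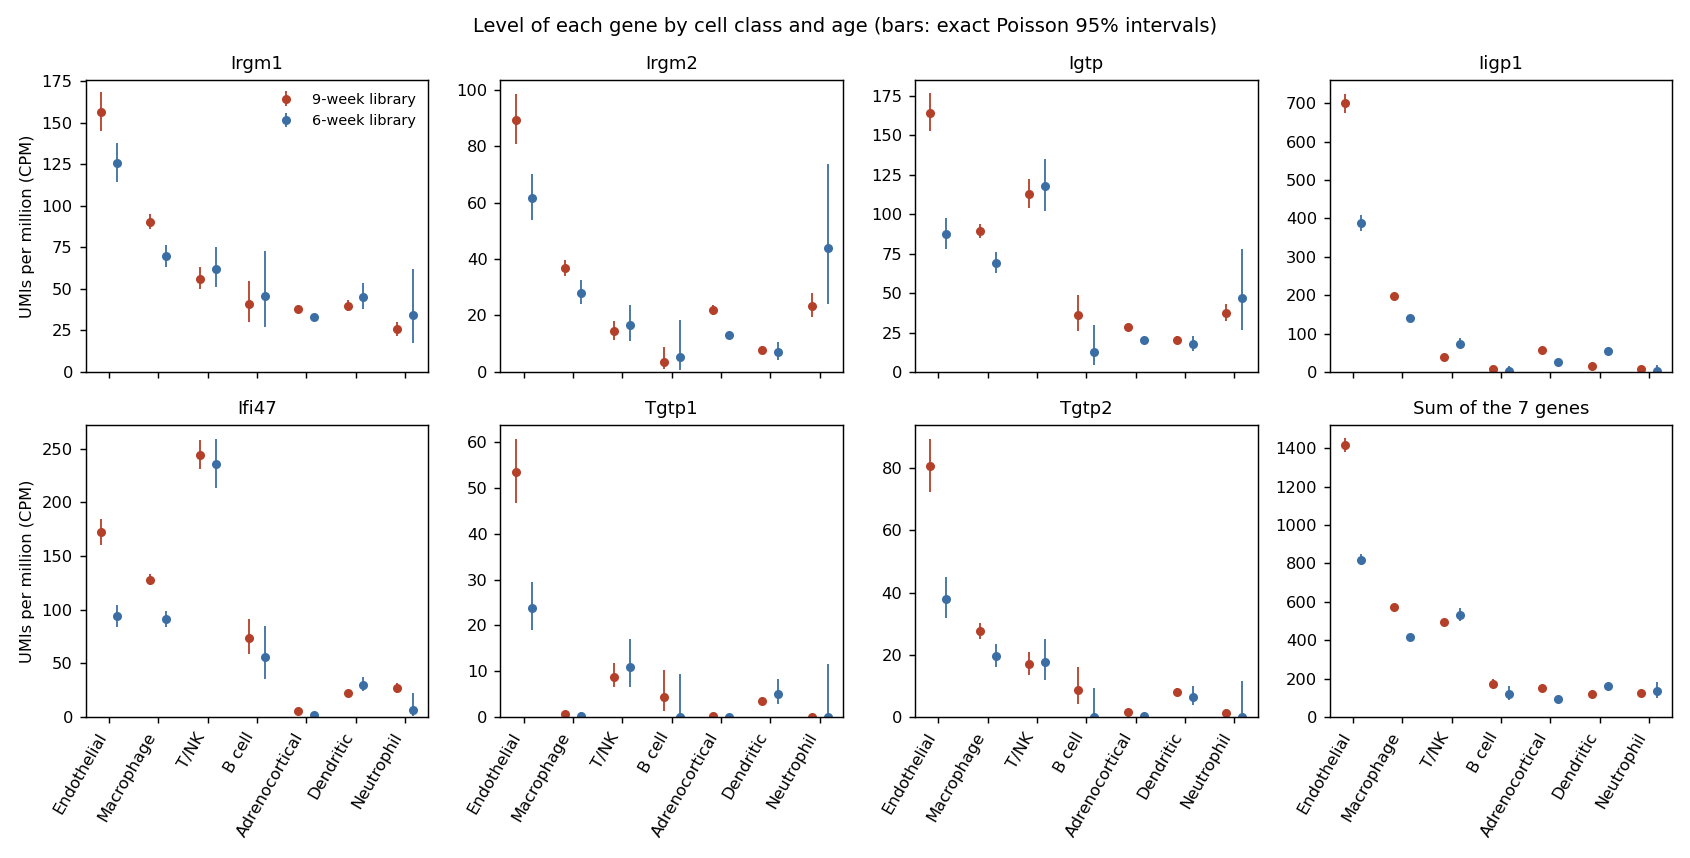
Level of each of the 7 genes and of their sum (CPM, linear axes from 0 that differ between panels), in 7 cell classes of the 9-week library (red, left) and the 6-week library (blue, right), with bars for exact Poisson 95% intervals. Endothelial-like cells lead for the sum at both ages, and T/NK-like cells lead for Ifi47, with 245 CPM at 9 weeks and 235 CPM at 6 weeks.

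The members did not share one order of classes. Iigp1, an effector that loads onto parasite vacuoles, was highest in endothelial-like cells, at 700.4 CPM at 9 weeks and 388 CPM at 6 weeks, with macrophage-like cells next at 199 and 139.5 CPM. Ifi47 had its peak in T/NK-like cells, at 245 CPM (231 to 258) at 9 weeks, against 235 CPM (213 to 259) at 6 weeks, above endothelial-like cells at 172 and 93.8 CPM. Igtp, a regulator found on the endoplasmic reticulum and lipid droplets, was highest in endothelial-like cells at 9 weeks (164 CPM, against 113 CPM in T/NK-like cells) and in T/NK-like cells at 6 weeks (118 CPM, against 87.6 CPM in endothelial-like cells). Irgm1, the regulator also tied to autophagy and survival of blood cells, was the most even of the 7. It ranged from 25.6 to 156 CPM over the classes at 9 weeks and from 33.4 to 126 CPM at 6 weeks, and no class lacked it. Tgtp1 was at the other end, with 53.4 and 23.8 CPM in endothelial-like cells and at most 10.8 CPM in any other class at either age.

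In endothelial-like cells all 7 genes were higher at 9 weeks than at 6 weeks. The sum of the 7 was 1.73 times as high (range from the bounds of both ages 1.63 to 1.84), a log2 ratio of 0.79 with a pseudocount of 5 CPM. Past 1.5-fold were 5 of 7, all higher, beside 1.33% higher and 1.26% lower by that much of the 8893 genes that passed the filter in this class (10 CPM in 1 library and 10 UMIs over both). The median log2 ratio of the 7 was 0.84, against 0.01 over all genes tested. Macrophage markers in these cells, 10 genes, summed to 2107 CPM at 9 weeks and 2085 CPM at 6 weeks, with none at 0. A second list of 6 macrophage genes summed to 1024 and 675 CPM, with 5 of 6 past 1.5-fold higher at 9 weeks. Of these sums, Fcer1g alone gave 683 CPM at 9 weeks and 553 CPM at 6 weeks. Free RNA, from outside the cell, was estimated at 9.15% of the library's profile at 9 weeks (8.22 to 10.1 by source). At 6 weeks the estimate was 11.7% (4.10 to 19.2 by source). With that share subtracted the family kept 1386 CPM at 9 weeks and 799 CPM at 6 weeks. Any other part of the macrophage genes in the result was not tested.

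The 4 effectors made up most of that difference. Iigp1 had 700.4 CPM (676 to 725) at 9 weeks, against 388 CPM (368 to 409) at 6 weeks, a log2 ratio of 0.84. Ifi47 had 172 CPM at 9 weeks and 93.8 CPM at 6 weeks (0.84). Tgtp1 and Tgtp2 together had 134 CPM (123 to 145) at 9 weeks, against 61.9 CPM (54.0 to 70.6) at 6 weeks, a log2 ratio of 1.06. Effectors summed to 1006 CPM at 9 weeks and 544 CPM at 6 weeks (1.85 times), and regulators to 410 CPM (391 to 429) and 275 CPM (258 to 293), 1.49 times. The regulators differed among themselves. Igtp reached 164 CPM at 9 weeks and 87.6 CPM at 6 weeks, a log2 ratio of 0.87 and as large as that of the effectors. Irgm2, a regulator of the Golgi, had 89.4 and 61.6 CPM (0.50), and Irgm1 had 156 and 126 CPM (0.30), so that both stayed inside 1.5-fold. Igtp and Irgm2, which overlap and carry nearly the same promoter stretch, had ranges of 0.61 to 1.13 for Igtp and 0.19 to 0.82 for Irgm2 on the log2 scale, which overlap.

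**Figure D2:**
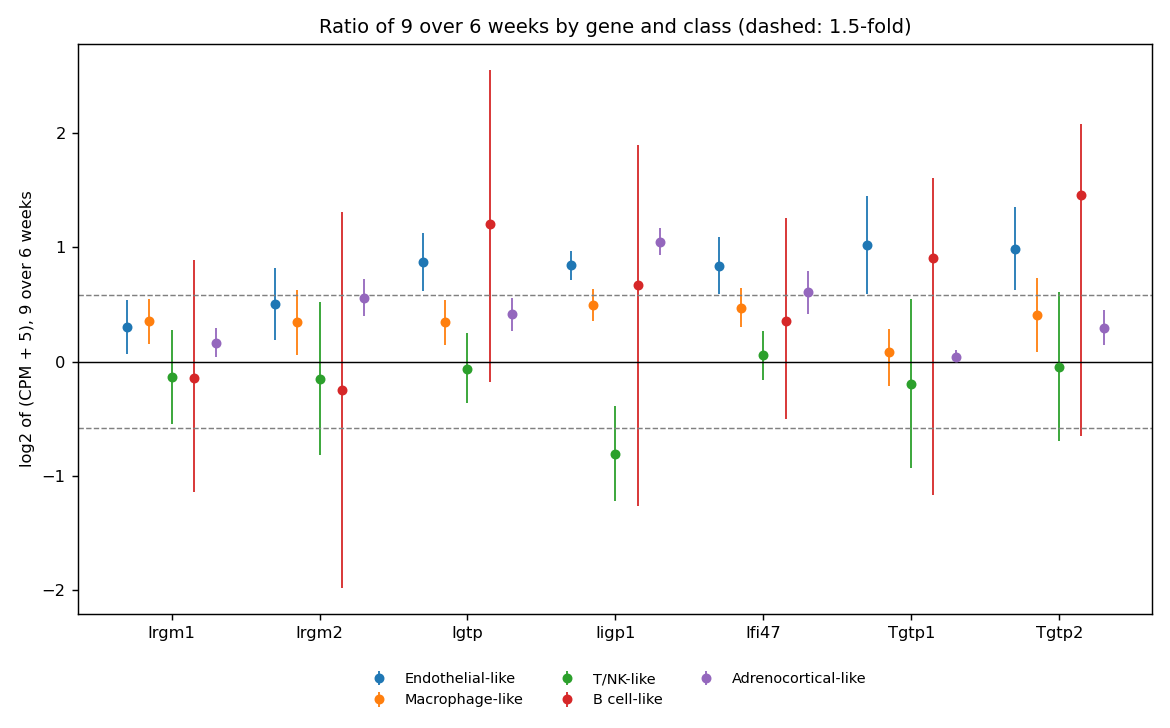
Log2 ratio of 9 over 6 weeks, from CPM plus a pseudocount of 5, for each gene in 5 cell classes, with bars from the bounds of both ages' Poisson intervals and dashed lines at 1.5-fold, drawn also for genes that did not pass the filter. Endothelial-like cells lie between 0.30 for Irgm1 and 1.02 for Tgtp1, macrophage-like cells between 0.34 and 0.50 for the 6 genes that passed the filter, and in T/NK-like cells Iigp1 lies at -0.81.

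Macrophage-like cells showed a smaller difference in the same direction, even across the family. The sum was 572 CPM (560 to 583) at 9 weeks, against 417 CPM (401 to 434) at 6 weeks, a log2 ratio of 0.45. Of the 7 genes, 6 passed the filter and none was past 1.5-fold, where 1.51% of genes tested were higher and 2.39% lower by that much. Their log2 ratios lay between 0.34 for Irgm2 and 0.50 for Iigp1, against a median of 0.04 over all genes tested. Iigp1, the most counted of them, had 199 CPM (192 to 206) at 9 weeks, against 139.5 CPM (130 to 149) at 6 weeks. Tgtp1 did not pass, with 11 UMIs (0.64 CPM) at 9 weeks and 2 UMIs (0.32 CPM) at 6 weeks among 2272 and 963 cells. With clusters weighted alike at both ages, Iigp1 came to 0.65, which is past 1.5-fold. The share of all genes past it in that setting is not given here.

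Adrenocortical-like cells, in which Znrf3 deletion is directed, had low levels that were higher at 9 weeks. The sum was 154 CPM (149 to 158) at 9 weeks, against 94.6 CPM (92.3 to 96.9) at 6 weeks, a log2 ratio of 0.67. Iigp1 alone was past 1.5-fold among the 4 genes that passed the filter, where 7.92% of genes tested were higher and 4.07% lower by that much. It had 57.4 CPM (54.8 to 60.2) at 9 weeks, against 25.1 CPM (23.9 to 26.4) at 6 weeks, a log2 ratio of 1.05. Irgm2 had 21.8 and 13.2 CPM (0.56), Igtp 28.5 and 20.2 CPM (0.41) and Irgm1 38.0 and 33.4 CPM (0.16), the 9-week level first. These ratios were sensitive to the make-up of the cortex. Cluster 0, led by Cyp2f2, held 212 of 2039 cells at 9 weeks and 2480 of 4195 at 6 weeks and had 106 CPM of the family at 9 weeks and 62.1 CPM at 6 weeks. With clusters weighted alike the log2 ratio of the sum was 0.29 and that of Iigp1 0.47, so that no member was past 1.5-fold.

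The other 3 effectors were low in adrenocortical-like cells, at a depth of 30945579 UMIs at 9 weeks and 66476433 UMIs at 6 weeks. Ifi47 had 5.91 and 2.15 CPM, and Tgtp2 1.81 CPM (56 UMIs) and 0.54 CPM (36 UMIs). For Tgtp1 there were 5 UMIs at 9 weeks and 1 UMI at 6 weeks. Endothelial markers summed to 37.1 and 19.0 CPM there. The 6 macrophage genes summed to 160 CPM at 9 weeks and 27.5 CPM at 6 weeks in these cells, against 36274 and 37739 CPM in macrophage-like cells. When that share of the library's profile was subtracted as free RNA, the family kept 148 CPM at 9 weeks and 93.3 CPM at 6 weeks.

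In T/NK-like cells the intervals of the summed level overlapped between ages. It was 493 CPM (475 to 513) at 9 weeks, against 534 CPM (500.2 to 569) at 6 weeks, a log2 ratio of -0.11. All 7 genes passed the filter, none was higher and 1 was lower by 1.5-fold, beside 3.4% of genes tested that were higher and 2.89% that were lower. Ifi47 (245 and 235 CPM), Igtp (113 and 118 CPM) and Irgm1 (56.1 and 62.2 CPM) each had overlapping intervals. The exception was Iigp1, with 39.9 CPM (34.7 to 45.7) at 9 weeks, against 73.7 CPM (61.5 to 87.5) at 6 weeks. That difference rested on 1 cell. A 6-week cell of cluster 29, which is led by histone and other cycle genes beside Trbc2 and Trac, held 75 of the 129 Iigp1 UMIs and 118 of the 935 UMIs of the family at a depth of 51518 UMIs. Without the single cell with the most family UMIs in each library, the log2 ratio of Iigp1 was 0.28, and without cluster 29 it was 0.22, from 42.0 CPM at 9 weeks and 35.3 CPM at 6 weeks.

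B cell-like cells held few UMIs of the family, 199 at 9 weeks and 48 at 6 weeks. The sum was 174 CPM (151 to 200.4) and 123 CPM (90.5 to 163), with overlapping intervals. The filter was passed by 3 genes and Igtp alone was past 1.5-fold (35.9 CPM at 9 weeks, from 41 UMIs, and 12.8 CPM at 6 weeks, from 5 UMIs; intervals overlap), where 16.9% of genes tested were higher and 5.79% lower by that much. Ifi47 was the most counted member, at 73.6 and 56.2 CPM, as it was in T/NK-like cells. Tgtp1 and Tgtp2 had 15 UMIs together at 9 weeks and none at 6 weeks, a difference that this depth cannot show.

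Dendritic-like cells went the other way for Iigp1. It had 16.4 CPM (14.5 to 18.5) in 1018 cells at 9 weeks and 53.3 CPM (45.4 to 62.3) in 216 cells at 6 weeks, a log2 ratio of -1.45, where 1.26% of genes tested were higher and 1.93% lower by 1.5-fold. Iigp1 was the only one of the 4 members that passed the filter there to be past that fold, and Irgm1 had 39.97 and 45.3 CPM. Part of the Iigp1 counts came from cluster 24, led by Ccl17, Ccl22 and Ccr7 (markers of mature, migrating dendritic cells), with 248 CPM at 9 weeks and 296 CPM at 6 weeks. This cluster made up 5.21% of the class at 9 weeks and 12.96% at 6 weeks. Without it Iigp1 was at 5.88 CPM (4.73 to 7.21) and 23.7 CPM (18.2 to 30.3), a log2 ratio of -1.40. Cluster 6 held 151 of the 188 cells left at 6 weeks. The family there had 99.5 CPM at 9 weeks and 107 CPM at 6 weeks. Without the 1% of its cells highest in the family, cluster 6 had 89.9 and 78.3 CPM. At full depth the variance of the family's UMIs per dendritic-like cell was 10.7 and 19.9 times the mean (9 and 6 weeks). Iigp1 without top cells is not given for this class. In neutrophil-like cells, where 26.7% of genes tested were higher and 33.1% lower by 1.5-fold, 4 members passed the filter, 1 was higher and 1 lower, with 43 UMIs of the family in all at 6 weeks. Different clusters held that class at the 2 ages. Cluster 8 held 440 of 797 neutrophil-like cells at 9 weeks and 191 of 192 at 6 weeks, and clusters 13 and 27 held the others. In cluster 8 the sum of the 7 genes was 394 CPM (354 to 438) at 9 weeks, against 137 CPM (99.5 to 185) at 6 weeks, a ratio of 2.87, while over the whole class the ratio was 0.92.

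The make-up of the family differed between classes. Iigp1 gave 49.4% (48.2 to 50.7) of the family's UMIs in endothelial-like cells at 9 weeks and 47.4% (45.6 to 49.2) at 6 weeks. In T/NK-like cells its share was 8.09% at 9 weeks and 13.8% at 6 weeks, and Ifi47 took 49.6% and 44.1% instead. The 6-week T/NK-like shares include the 1 cell of cluster 29 described above. It held 75 of the 129 Iigp1 UMIs and 118 of the 935 family UMIs. Shares were not computed without it, so no statement on a difference between ages is drawn from them in this class. Macrophage-like cells lay between, with 34.8 and 33.4% from Iigp1 and 22.4 and 21.8% from Ifi47. Each UMI marks 1 transcript end, so these shares are not per length, and capture may still differ between genes. The share of the 4 effectors together was 71.0% at 9 weeks and 66.4% at 6 weeks in endothelial-like cells, 62.1 and 59.99% in macrophage-like cells and 62.9 and 63.2% in T/NK-like cells. In adrenocortical-like cells it was 42.5% (41.1 to 43.9) at 9 weeks and 29.4% (28.3 to 30.6) at 6 weeks. That share differed between clusters. In cluster 0, which held most adrenocortical-like cells at 6 weeks and few at 9 weeks, it was 34.6% (29.9 to 39.5) at 9 weeks and 12.1% (10.9 to 13.4) at 6 weeks. In cluster 3 it was 38.7% and 38.6%, in cluster 4 43.2% and 38.9% and in cluster 5 45.1% and 48.7%, the 9-week share first.

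Tgtp1 and Tgtp2, the near-identical pair, divided differently by class. Of the UMIs given to either, Tgtp1 took 39.9% (35.9 to 43.9) in endothelial-like cells at 9 weeks and 38.5% (32.0 to 45.2) at 6 weeks. In T/NK-like cells it took 34.3% and 38.0%, of 134 and 50 UMIs. In macrophage-like cells it took 2.27% (1.14 to 4.03) of 484 UMIs at 9 weeks and 1.63% (0.20 to 5.75) of 123 UMIs at 6 weeks, and in adrenocortical-like cells 8.20% of 61 and 2.70% of 37. Within each class the intervals overlapped between ages, and those of adrenocortical-like cells, with 5 and 1 Tgtp1 UMIs, were wide. The intervals of endothelial-like and macrophage-like cells lay apart at both ages. Gm12185, which shares ends with both genes and overlaps Tgtp1, is not part of this split. It had 133 and 19 UMIs in macrophage-like cells and 40 and 14 in endothelial-like cells, the 9-week count first. How reads were divided among these loci was not tested.

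**Figure D3:**
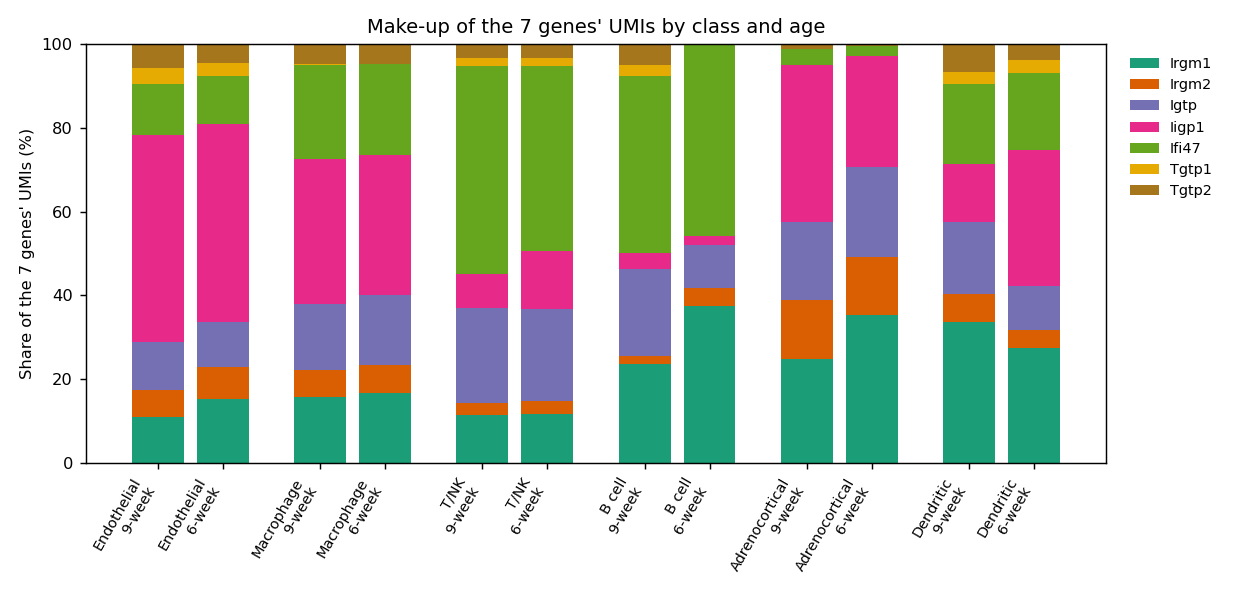
Share of each gene in the UMIs of the 7 genes (percent, stacked to 100), for 6 cell classes, each with the 9-week library left of the 6-week library. Iigp1 (pink) gives 49.4% and 47.4% in endothelial-like cells at 9 and 6 weeks, and Ifi47 (green) gives 49.6% and 44.1% in T/NK-like cells. The 6-week T/NK-like bar includes 1 cell of cluster 29 that held 118 of the 935 family UMIs, 75 of them Iigp1.

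To compare shares of cells at one depth, each cell was thinned to 2000 UMIs and shallower cells were left out. In endothelial-like cells, 80.6% (78.3 to 82.8) of 1203 cells at 9 weeks and 61.0% (57.7 to 64.3) of 857 cells at 6 weeks then held at least 1 UMI of the family. At least 3 UMIs were found in 43.9% at 9 weeks and 19.3% at 6 weeks. Macrophage-like cells had 61.7% (59.6 to 63.7) and 44.3% (41.1 to 47.7) with a UMI, T/NK-like cells 56.0 and 52.6%, and adrenocortical-like cells 20.05% (18.3 to 21.9) and 11.98%. Without thinning the shares were 81.3 and 61.4% in endothelial-like, 88.1 and 74.4% in macrophage-like, 76.9 and 71.6% in T/NK-like and 62.3 and 53.3% in adrenocortical-like cells, whose median depths differ several-fold. No class can be assumed to lack the whole family, so no background share is given for the 7 genes together. Tgtp1 is given on its own. At the thinned depth no adrenocortical-like cell held a Tgtp1 UMI (0 of 2020 at 9 weeks, which allows up to 0.149%, and 0 of 4174 at 6 weeks, up to 0.0719%), against 10.1% of endothelial-like cells at 9 weeks and 5.13% at 6 weeks. The endothelial shares of all 7 genes were higher at 9 weeks, from 56.9 and 32.1% for Iigp1 down to Tgtp1. Intervals overlapped between ages for Irgm1, at 26.2% (23.7 to 28.8) and 22.2% (19.4 to 25.1). They also did for Irgm2, at 15.2% (13.2 to 17.4) and 11.1% (9.06 to 13.4).

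Thinned counts per cell were spread wider than random sampling gives, except in B cell-like and neutrophil-like cells at 6 weeks. There the variance was 0.98 and 0.89 times the mean, over 109 and 38 cells. In endothelial-like cells the variance was 2.82 times the mean at 9 weeks and 4.07 times at 6 weeks, and in macrophage-like cells 1.86 and 3.03 times. A Poisson spread with the same mean would leave 5.54% of endothelial-like cells without a UMI at 9 weeks and 20.1% at 6 weeks, where 19.4% and 39.0% were found. Endothelial-like cells with 6 or more UMIs made up 16.4% at 9 weeks and 6.65% at 6 weeks, while in macrophage-like cells they made up 2.12% and 2.69%. In adrenocortical-like cells 0.40% and 0.46% had 6 or more, and 1 cell held 188 UMIs of the family unthinned at 9 weeks and another 208 at 6 weeks, 3.95% and 3.31% of the class's family UMIs.

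**Figure D4:**
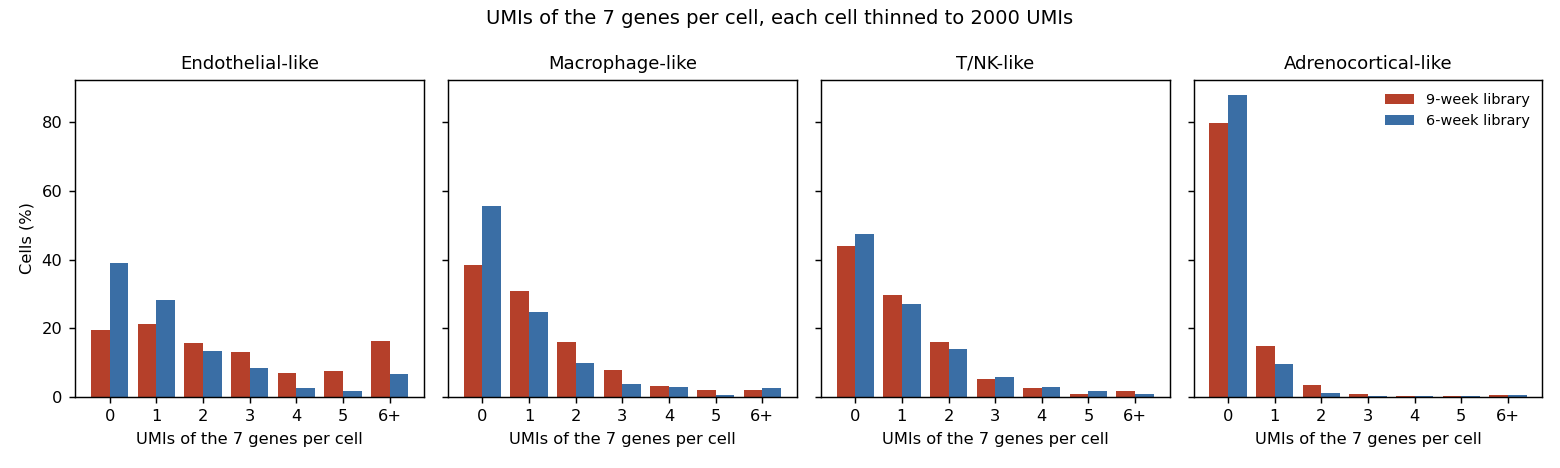
Distribution of the UMIs of the 7 genes per cell (horizontal axis, 6+ for 6 or more) as a share of cells (percent, bars from 0) after thinning each cell to 2000 UMIs, with the 9-week library in red on the left of the 6-week library in blue. The bar at 0 is shorter at 9 weeks in all 4 classes, and endothelial-like cells with 6 or more make up 16.4% at 9 weeks and 6.65% at 6 weeks.

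Cells with more of the family also carried more of another interferon-induced family at both ages. This held in endothelial-like, adrenocortical-like, macrophage-like and T/NK-like cells. Endothelial-like cells with 3 or more thinned UMIs had 1383 CPM of the guanylate-binding proteins (Gbp genes, a second family of interferon-induced GTPases) at 9 weeks and 1339 CPM at 6 weeks, against 675 and 408 CPM in cells with 0 UMIs. Endothelial markers were alike in both sets (17245 and 16947 CPM, against 17016 and 16919 CPM), and the 6 macrophage genes were alike too (959 and 626 CPM, against 1011 and 594 CPM). In adrenocortical-like cells the 31 cells with 3 or more UMIs at 9 weeks and the 49 at 6 weeks had 780 and 1664 CPM of Gbp genes, against 122 and 116 CPM in cells with 0 UMIs. Their macrophage genes were at 56.8 and 33.1 CPM. Macrophage-like cells with 3 or more UMIs had 696 and 828 CPM of Gbp genes, against 429 and 204 CPM with 0 UMIs. In T/NK-like cells the levels were 1080 and 1043 CPM, against 425 and 313 CPM. B cell-like cells with 1 or 2 UMIs had 213 and 128 CPM, against 203 and 130 CPM with 0 UMIs. Within endothelial-like cells with 3 or more UMIs the family itself was alike at both ages, at 2542 CPM at 9 weeks and 2534 CPM at 6 weeks. The sets were cut from the family's own counts, so its levels in them are a description.

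Of 28 clusters with at least 20 cells in each library, 20 had a higher summed level at 9 weeks and 8 a lower one. Intervals did not overlap in 14 of the clusters that were higher and in 2 of those that were lower. All 3 endothelial clusters were higher at 9 weeks. Cluster 2, led by Esm1, Igfbp5 and the capillary gene Gpihbp1, had 1389 CPM at 9 weeks and 808 CPM at 6 weeks, and cluster 7, led by Rgcc, Plvap and Tek, had 1523 and 876 CPM. Cluster 22, led by the arterial genes Sox17 and Gja4, was lowest of the 3, with 910 CPM (765 to 1075) and 448 CPM (342 to 576). The ratios of the 3 clusters were 1.72, 1.74 and 2.03.

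Cortical clusters did not move together. Cluster 4, led by Snap91, Srd5a2 and Cyp11b1, had 247 CPM at 9 weeks and 172 CPM at 6 weeks, and cluster 0 had 106 and 62.1 CPM. Cluster 5, led by Htra1 and Cryab, had 187 and 185 CPM, with overlapping intervals. Cluster 3, led by Ecrg4, Vsnl1 and Hsd3b6 (a 3-beta-hydroxysteroid dehydrogenase of the outer cortex), went the other way with 56.3 CPM (51.6 to 61.2) at 9 weeks, against 96.8 CPM (90.4 to 104) at 6 weeks. Without the 1% of its cells highest in the family, cluster 3 had 47.2 CPM at 9 weeks and 69.9 CPM at 6 weeks. The second cluster that was lower at 9 weeks was cluster 29, with 354 and 699 CPM, which holds the 6-week T/NK-like cell described above.

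Among macrophage-like clusters the level differed by subtype. Cluster 9, led by Fcrls, Cbr2 and Mrc1, had 749 CPM at 9 weeks and 541 CPM at 6 weeks, and cluster 1, led by Fcgr4 and C1qa, had 606 and 431 CPM. Cluster 21, led by Mmp12, Gpnmb, Spp1 and the lipase gene Lpl, had 150 CPM at 9 weeks and 114 CPM at 6 weeks, the least of the 4 macrophage-like clusters, with overlapping intervals. Cluster 12, led by Fn1, F13a1, Plac8 and Cxcl10 and left unnamed because its monocyte and macrophage marker scores were too close, reached 747 and 557 CPM, as much as any macrophage-like cluster. In T/NK-like cells cluster 14, led by Dapl1, Il7r and Lef1 (genes of naive T cells), had 688 CPM at 9 weeks and 489 CPM at 6 weeks, and cluster 15, led by the NK genes Gzma and Ncr1, had 290 and 336 CPM.

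**Figure D5:**
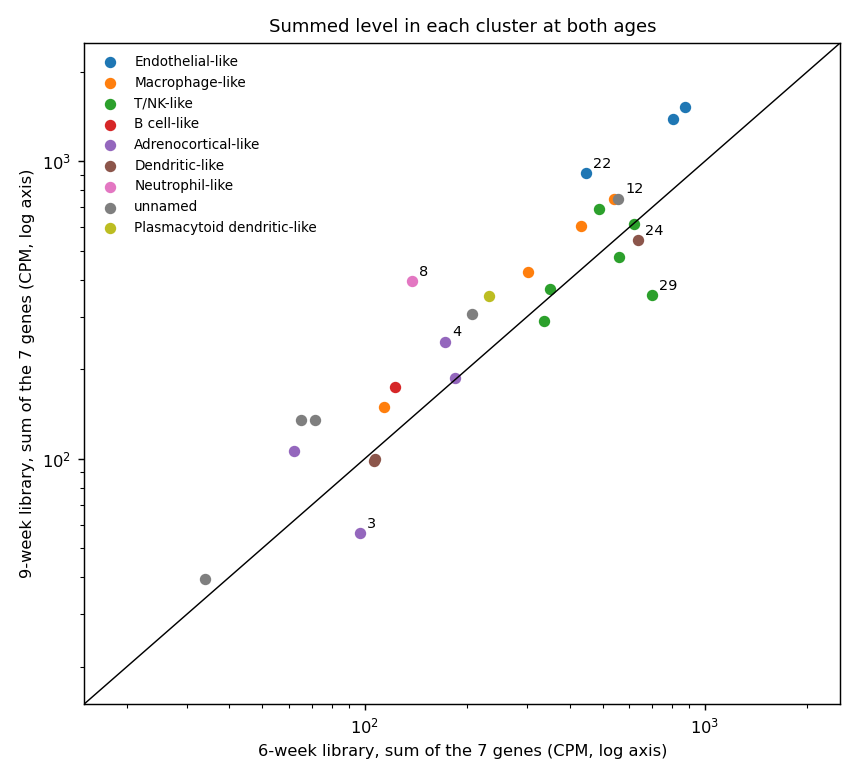
Summed level of the 7 genes (CPM, both axes logarithmic) at 9 weeks (vertical) against 6 weeks (horizontal) in each of 28 clusters with at least 20 cells in each library, coloured by class, with a line of equal levels. Points above the line are higher at 9 weeks, as the 3 endothelial-like clusters are, and clusters 3 and 29 lie below it with intervals that do not overlap.

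Some genes of the interferon gamma pathway are given for comparison, beginning with endothelial-like cells. Ciita, the activator of MHC class II genes, had 17.0 CPM at 9 weeks and 5.599 CPM at 6 weeks, a log2 ratio of 1.05. The receptor gene Ifngr1 had 240.1 and 228 CPM (0.07) and Irf1 225 and 182 CPM (0.30). The ligand itself, Ifng, was counted mainly in T/NK-like cells, at 80.4 CPM (72.9 to 88.5) at 9 weeks, against 83.9 CPM (70.9 to 98.7) at 6 weeks. These levels came from 417 UMIs in 1093 cells and 147 UMIs in 395 cells, and endothelial-like cells held none. In macrophage-like cells Ciita had 202 CPM at 9 weeks and 114 CPM at 6 weeks (0.80), and Irf1 had 155 and 99.9 CPM (0.61), both larger ratios than that of any of the 7 members there.

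Guanylate-binding proteins, which act with the immunity-related GTPases at pathogen vacuoles, were in part higher at 9 weeks in endothelial-like and macrophage-like cells. In endothelial-like cells 4 of 7 genes that passed the filter were past 1.5-fold, all higher (median log2 ratio 0.65), beside 1.33% of all genes tested, among them Gbp7 at 417 CPM at 9 weeks and 252 CPM at 6 weeks. Gbp5 was not, with 47.7 CPM at 9 weeks and 46.8 CPM at 6 weeks. In macrophage-like cells 5 of 9 were (median 0.73), beside 1.51% of all genes tested, with Gbp8 at 78.3 and 29.6 CPM. In adrenocortical-like cells none of 4 was (median 0.05), where 7.92% of all genes tested were higher by that much. Gbp7 had 78.2 and 77.3 CPM there, beside the Iigp1 ratio of 1.05 in the same cells. In T/NK-like cells none of 8 was higher and 1 was lower, beside 3.4% higher and 2.89% lower of all genes tested. The lower one was Gbp6 at 36.1 and 59.95 CPM.

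Genes tied more to type I interferon, such as Isg15 and Rsad2, showed no member past 1.5-fold in endothelial-like cells, of 13 that passed the filter (median 0.15). Of all genes tested in that class, 1.33% were higher and 1.26% lower by that much. Rsad2, an antiviral enzyme, had 1149 CPM at 9 weeks and 1107 CPM at 6 weeks there. In macrophage-like cells 3 of 13 were higher by 1.5-fold (median 0.31), beside 1.51% of all genes tested, with Irf7 at 162 and 82.0 CPM. In adrenocortical-like cells 3 of 10 were higher (median 0.19), beside 7.92% of all genes tested. They were Ifit3 at 25.7 and 15.3 CPM, Rsad2 at 13.7 and 7.21 CPM and Oasl2 at 22.9 and 12.9 CPM, the 9-week level first. Of 11 in T/NK-like cells, 1 was higher, beside 3.4% of all genes tested. It was the kinase gene Tyk2 at 39.9 and 22.8 CPM. Of 12 genes of the autophagy conjugation and ubiquitin machinery that helps to place the GTPases on vacuoles, none was past 1.5-fold in endothelial-like, macrophage-like or adrenocortical-like cells (median log2 ratios -0.0023, -0.043 and -0.0025), nor any of the 11 that passed in T/NK-like cells. The 12 other listed loci of the family had 9 in the count tables, of which 6 passed in endothelial-like cells. Past 1.5-fold were 2, both higher, beside 1.33% of all genes tested. One of them, Gm4841, differed in the same direction as Iigp1 in these 4 classes. It had 48.0 and 25.5 CPM in endothelial-like cells, 40.3 and 8.92 CPM in adrenocortical-like cells and 34.6 and 11.3 CPM in macrophage-like cells, with the 9-week level first, and in T/NK-like cells it had 6.36 CPM at 9 weeks, against 32.0 CPM at 6 weeks. The T/NK-like value includes the 6-week cell described above and was not computed without it.

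Over the 14 sums of 7 classes and 2 ages, the members themselves followed the sum of the other 6 to different degrees, with Pearson r of log2(CPM + 5) from 0.59 for Irgm2 and 0.63 for Ifi47 to 0.91 for Irgm1 and 0.94 for Tgtp2. Outside the family, among 6535 genes, the pattern most like the summed level was that of Prdm1 (r = 0.95), the gene of the transcriptional repressor Blimp1, followed by Dynll1 (0.92), Igfbp4 (0.91), Prkch (0.90) and the interferon-induced Xaf1 (0.90). Gbp4 ranked 21 (0.85) and Irf1 ranked 376 (0.68). The 14 points share 2 libraries, and the 5 genes named were highest in endothelial-like cells. Prdm1 had 132 CPM at 9 weeks and 110.0 CPM at 6 weeks there.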

How the data were processed

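Single cells of adrenal glands were captured with 10x chemistry after lysis of red blood cells and a sort for live cells, per the labels' protocols. The authors deposited UMI counts per gene and cell barcode, made with Cell Ranger 6.0.1 on mm10, per the file headers and the submitters' processing notes, which also name Seurat. No source used here gives the annotation release. Cells with at least 500 genes and at most 25% mitochondrial UMIs were kept (221 and 161 barcodes at 9 and 6 weeks had too few genes, and 64 and 111 too many mitochondrial UMIs). Scrublet, run per library in scanpy 1.11.5, then removed 586 and 475 doublets. Cells of both libraries were clustered together without integration (2000 variable genes, 30 components, 20 neighbours, Leiden resolution 1). Iigp1 was among the variable genes and the other 6 members were not. Clusters were named from at least 3 markers found in 10% of cells and at 2 times the median cluster, with the next class scoring at most 0.5 of the best. That scoring was chosen after seeing the data.

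Counts were summed per class and library and divided by the class total (CPM). A gene passed with 10 CPM in 1 library and 10 UMIs over both. Log2 ratios are of 9 over 6 weeks with a pseudocount of 5 CPM, so they understate the ratio of low genes, and 1.5-fold is a size and not a test. Intervals are 95%, and the floor for a count of 0 is 3 counts. The ratio calculation was tested on simulated data. The genes named were the 7 members, members of the lists, and the 10 genes most like the summed level among those with 50 CPM in a class and library. The members and lists were chosen with earlier results of these data known. Positions are from GENCODE M21 and promoters from RefSeq (GRCm38.p6). One gene of the interferon gamma list is not reported here, and neither are that list's counts.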

Additional observations from a re-analysis of the deposited data

Results flagged for a closer look

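Iigp1 differed between ages in opposite directions in different cell classes. Its log2 ratio of 9 over 6 weeks was higher in endothelial-like than in T/NK-like cells by 1.65 and than in dendritic-like cells by 2.29. It was higher in adrenocortical-like than in T/NK-like cells by 1.86 and than in dendritic-like cells by 2.50. These differences were not tested, since each age has 1 library. The T/NK-like ratio of -0.81 was 0.28 without the single cell with the most family UMIs in each library, so the opposite direction there rested on 1 cell of the 6-week library. The dendritic-like ratio of -1.45 was -1.40 without cluster 24 and -0.25 in cluster 24 alone, which held most of the class's Iigp1 counts. Whether the -1.40 rests on a few cells was not tested. In cluster 6 the ratio of the family's sum was 0.93 with all cells. It was 1.15 without the 1% of cells highest in the family.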

How the results depend on the processing

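No paired analysis was possible because each age has 1 library, and for the same reason no replicate could be left out. The summed level in endothelial-like cells was higher at 9 weeks under every alternative run, with a log2 ratio of 0.88 without the 1% of cells highest in the 7 genes. In adrenocortical-like cells the log2 ratio of the sum, 0.67, was 0.51 with TMM scaling (which shifted all genes of that class by 0.17), 0.29 with clusters weighted alike and 0.86 without the top 1% of cells. The members past 1.5-fold there, 1 in the main setting, were 2 with a pseudocount of 1 CPM, with no filter on low values and without the top 1% of cells, and 0 with clusters weighted alike. In macrophage-like cells 1 member was higher with clusters weighted alike and without the top 1% of cells, against 0. In B cell-like cells 3 were higher at resolution 0.5 and 4 with no filter, against 1. Those added with no filter were Iigp1 (8 and 1 UMIs at 9 and 6 weeks), Tgtp1 (5 and 0) and Tgtp2 (10 and 0). The share of all genes past 1.5-fold under each changed setting is not given here, so these counts of members describe the settings only. In T/NK-like cells the 1 lower member became 0 with no doublet removal, with clusters weighted alike, without the top cell and without clusters 24 and 29, where the log2 ratio of the sum was 0.065. Iigp1 reversed in T/NK-like cells to 0.28 without the top cell and 0.22 without clusters 24 and 29, and in B cell-like cells, with 9 UMIs in all, to -0.36 without the top 1% of cells. The settings that leave out top cells or clusters 24 and 29 were chosen after seeing the data. The cause of these differences was not tested, except that leaving out cells acts by removing them. Tgtp1 and Tgtp2 share most of their ends, B cell-like and neutrophil-like cells are shallow at 6 weeks, and differences between animals cannot be told apart from age.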
